A study of Mus musculus with 4 samples.

Results

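Hedgehog signaling was read here from 9 genes: the ligands Shh, Ihh and Dhh, the receptors Ptch1 and Smo with the co-receptor Gas1, and the transcription factors Gli1, Gli2 and Gli3. The genes were taken by symbol, and all 9 were found among the 23284 distinct symbols of the expression tables. The tables describe 4 primary mammary tumors of female mice, 2 of genotype WapCre;Brca1;p53 (double-mutant, tumors 26048 and 26050) and 2 of genotype WapCre;Rank;Brca1;p53 (triple-mutant, tumors 26043 and 26044). All 4 carried the WapCreC transgene with floxed Brca1 and p53 alleles, and the genotypes differed in the floxed Rank allele (gene Tnfrsf11a, the receptor for RANKL). The Cre recombinase of this transgene acts in luminal and basal mammary epithelial cells without pregnancy or doxycycline, so stromal cells of a tumor keep their alleles. According to the study, females of both genotypes were littermates, without a statement of which of these tumors share a litter. The age of the mice and the grade of each sequenced tumor are not given in the sources used here.

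In the Hedgehog pathway a secreted ligand binds PTCH1, which otherwise holds the membrane protein SMO inactive. Released SMO acts at the primary cilium and shifts the GLI factors from repressors toward activators of transcription, and Gli1 and Ptch1 are themselves target genes, so that their level is often read as pathway output. GAS1, CDON and BOC help ligands bind PTCH1, and in the embryonic mammary gland GLI3 acts as a repressor that is needed for bud formation.

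Expression is given as FPKM, fragments per kilobase of transcript scaled to the mapped fragments of the library, which corrects for length, so that levels of different genes can be set side by side. The sum of FPKM over the gene rows was 690775 to 796031 per tumor, and the depth in reads is unknown. Tumor tissue was analysed in bulk, where fewer cells of a type and less RNA per cell cannot be told apart. The luminal keratin Krt8, at 98.3 to 708 FPKM, was present in all 4 tumors, as was Krt18 at 80.3 to 729 FPKM. The targeted gene Tnfrsf11a was at 2.07 and 0.962 FPKM in the triple-mutant tumors and 10.6 and 11.9 FPKM in the double-mutant tumors (log2 fold change -2.32, limma adjusted p = 0.225), so its level was lower in both tumors labelled as lacking Rank.

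Genotypes were compared with limma on log2(FPKM + 1) over the 12752 genes that reached 1 FPKM in at least 2 tumors, and a fold change is triple-mutant minus double-mutant on this scale, which understates changes of low genes. For any 1 gene, permuting 2 against 2 tumors exactly cannot give a p below 0.333. Of the 9 Hedgehog genes, 5 reached the filter (Dhh, Ptch1, Smo, Gas1 and Gli3), and none of them passed an adjusted p of 0.05. Over all genes tested 0.0% passed, and 1252 genes had an unadjusted limma p under 0.05, of which 1 was a Hedgehog gene, Gas1. Of the 5, 1 (Gas1) had both triple-mutant values above both double-mutant values, which was so for 21.3% of all genes tested. None of the 5 had both double-mutant values on top, which was so for 22.9% of all genes tested. With so few genes these counts do not set the Hedgehog genes apart from the background.

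**Figure D1:**
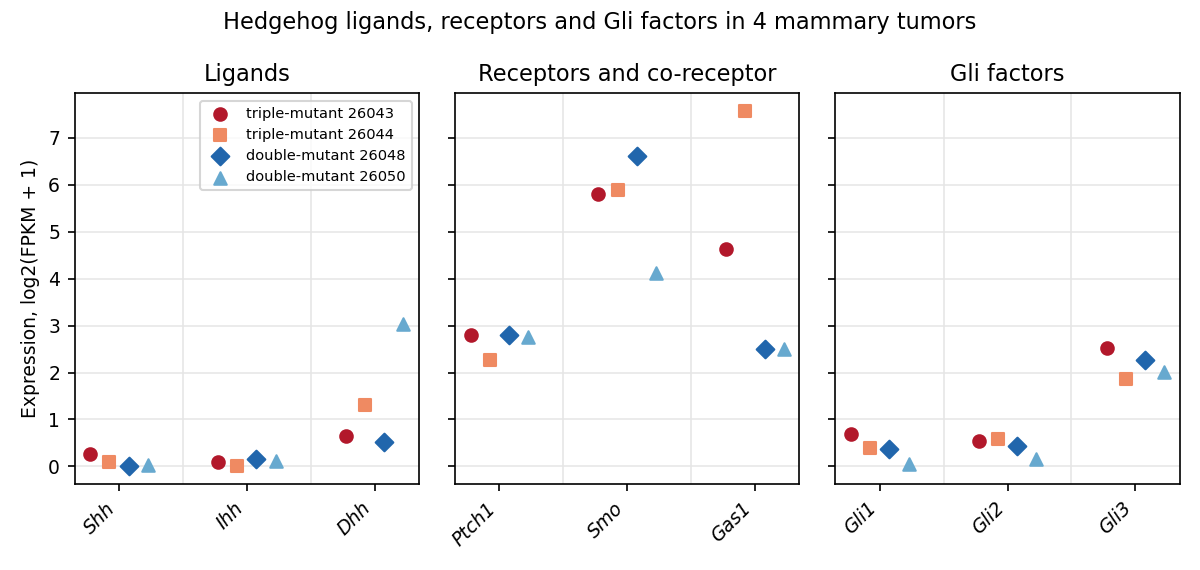
Level of each Hedgehog gene, as log2(FPKM + 1), in each of the 4 tumors, with 1 point per tumor and no averaging. Red points are triple-mutant and blue points double-mutant tumors. Gas1 stands highest in tumor 26044, at 189 FPKM, and Smo in each of the other tumors. Shh, Ihh, Gli1 and Gli2 lie near 0 in every tumor.

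The genes that differed most between tumors were Gas1, Dhh and Smo. The 250 bases before the start of each are shown 5′ to 3′ on the strand of the gene, from RefSeq on GRCm38.p6, with matches to the CCAAT box (CCAAT or ATTGG) and the GC box (GGGCGG or CCGCCC) in capitals. They lie at chr13:60177536-60177785 on the minus strand for Gas1, chr15:98898541-98898790 on the minus strand for Dhh and chr6:29735247-29735496 on the plus strand for Smo.
Gas1: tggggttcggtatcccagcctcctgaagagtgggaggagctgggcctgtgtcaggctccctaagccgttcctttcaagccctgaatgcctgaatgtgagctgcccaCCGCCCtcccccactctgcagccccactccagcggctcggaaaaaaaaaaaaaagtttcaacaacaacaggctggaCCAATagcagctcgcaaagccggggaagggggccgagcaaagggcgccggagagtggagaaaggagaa
Dhh: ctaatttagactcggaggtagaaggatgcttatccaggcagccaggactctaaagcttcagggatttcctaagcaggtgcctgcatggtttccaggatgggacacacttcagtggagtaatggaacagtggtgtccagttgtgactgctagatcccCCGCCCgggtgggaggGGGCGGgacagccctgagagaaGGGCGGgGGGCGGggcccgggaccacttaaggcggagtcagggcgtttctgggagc
Smo: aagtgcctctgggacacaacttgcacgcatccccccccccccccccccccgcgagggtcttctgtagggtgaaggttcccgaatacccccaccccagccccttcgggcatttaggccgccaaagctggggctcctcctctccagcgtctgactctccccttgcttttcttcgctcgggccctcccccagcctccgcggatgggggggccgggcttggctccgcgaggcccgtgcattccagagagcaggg
The Gas1 window held 1 CCAAT box and 1 GC box, the Dhh window 4 GC boxes and no CCAAT box, and the Smo window neither motif. Of 32851 such windows, 33.8% held a CCAAT box and 32.7% a GC box. Of the 7 Hedgehog genes with a window, Gas1 alone held the CCAAT box, and 6 of 7 held a GC box. Among the 94 pathway genes with a window, these 7 included, 64 held a GC box and 41 a CCAAT box. The Gli motif, searched as GACCACCCA or TGGGTGGTC, was in 0 of these 7 windows and in 0.225% of all windows. It was in 0 of the windows of all 94 pathway genes with a window, a set that includes these 7. A match describes the letters of the window and says nothing of binding in these tumors.

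Among the ligands only Dhh reached 1 FPKM in any tumor. Dhh (chr15:98893027-98898540), the ligand known from Sertoli and Schwann cells, was at 0.555 and 1.46 FPKM in the triple-mutant tumors 26043 and 26044 and at 0.433 and 7.23 FPKM in the double-mutant tumors 26048 and 26050. The double-mutant tumors held both the lowest and the highest value, 16.7-fold apart, so the genotypes overlapped. The log2 fold change was -0.81 (SE 0.91, 95% interval -3.22 to 1.60, limma adjusted p = 0.781). Without tumor 26050 it was 0.45, so this tumor alone set the direction. Dhh made up 66.6% to 98.6% of the summed FPKM of the 3 ligands. The annotation places Rhebl1 on the same strand over part of Dhh, and an antisense gene on the other, and whether FPKM estimation used strand is not given in the sources used here.

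Schwann cell markers did not single out tumor 26050. The summed FPKM of the 6 markers was 351 and 388 in the triple-mutant and 321 and 252 in the double-mutant tumors, most of it from Sox10, which mammary epithelium also expresses. None of the 6 was at 0 in any tumor.

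Shh and Ihh stayed near the limit of what the tables record. Shh (chr5:28456840-28467101), the ligand best known from limb and neural tube patterning, was at 0.209 and 0.0617 FPKM in the triple-mutant tumors, was listed at 0 in tumor 26048 and was at 0.0175 FPKM in tumor 26050. The ordering put both triple-mutant values above both double-mutant values, but the interval that Cufflinks gives for tumor 26044, 0 to 0.129 FPKM, held the value of tumor 26050. Ihh (chr1:74945318-74951651), the ligand of growing cartilage, was at 0.0692 FPKM in tumor 26043, was listed at 0 in tumor 26044 and was at 0.12 and 0.0885 FPKM in the double-mutant tumors. Its interval for tumor 26043 reached 0.127 FPKM, above both double-mutant values. Neither gene passed the filter, so neither has a test.

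Gas1 was the Hedgehog gene with the widest difference between genotypes. Gas1 (chr13:60174405-60177535), a GPI-anchored co-receptor first described in growth-arrested fibroblasts, was at 23.7 and 189 FPKM in the triple-mutant tumors 26043 and 26044 and at 4.65 and 4.67 FPKM in the double-mutant tumors. Both triple-mutant values lay above both double-mutant values, and they were themselves 7.95-fold apart, whereas the double-mutant tumors were nearly equal. The mean was 106 ± 117 FPKM (SD, n = 2) against 4.66 ± 0.01 FPKM (SD, n = 2), a 22.8-fold ratio of means. The log2 fold change was 3.60 (SE 1.01, 95% interval 0.92 to 6.27, limma adjusted p = 0.466), place 85 by size among the genes tested. It did not pass the threshold. Its size depended on the triple-mutant tumors: without 26043 it was 5.07 and without 26044 it was 2.13, and the adjusted p over leaving out each tumor ran from 0.107 to 0.992.

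The profile of Gas1 over the 4 tumors was nearly that of Pdpn, which codes for podoplanin, a membrane glycoprotein of myoepithelial, lymphatic and some stromal cells. Pdpn was at 25.4 and 204.5 FPKM in the triple-mutant and at 5.08 and 5.83 FPKM in the double-mutant tumors, a root mean square distance of 0.07 on the log2 scale from Gas1 after both profiles were centred. The next of the 11644 genes searched were Calca, which codes for calcitonin and its related peptide, at 0.27, and Hs3st6, a heparan sulfate sulfotransferase, at 0.28. Likeness over 4 tumors is a description, and many genes share any given order of 4 values.

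Cell type markers also differed with Gas1. The 9 basal and myoepithelial markers summed to 1754 and 1323 FPKM in the triple-mutant and 74.1 and 49.3 FPKM in the double-mutant tumors. Of the 8 tested, 7 (87.5%, against 21.3% of all genes tested) lay above in both triple-mutant tumors. None of the 9 was at 0 in a tumor. Krt5, a basal keratin, was at 596, 113.9, 1.15 and 2.06 FPKM in tumors 26043, 26044, 26048 and 26050, so that its highest level was in tumor 26043, whereas Gas1 was highest in tumor 26044. Tumor 26044, with the highest Gas1, also had the highest Acta2, a smooth muscle actin, at 898 FPKM against 31.8 to 64.8 FPKM in the others. Its sum of luminal markers was the lowest, 441 FPKM against 2080 to 2953 FPKM, but the luminal list was not uniform. Of the 10 tested, 4 (40.0%, against 22.9% of all genes tested) were higher in both double-mutant tumors. Another 3 (30.0%, against 21.3%), namely Krt19, Esr1 and Pgr, were higher in both triple-mutant tumors. Fibroblast markers were mixed. Their sums were 241 and 211 FPKM in the triple-mutant and 933 and 472 FPKM in the double-mutant tumors. Of the 9 tested, 5 (55.6%, against 22.9% of all genes tested) were higher in both double-mutant tumors. Another 2, the growth factor receptor Pdgfra (2.90 and 19.1 against 1.63 and 1.44 FPKM) and the matrix gene Fbln1 (34.3 and 88.0 against 23.5 and 32.2 FPKM), were higher in both triple-mutant tumors and highest in 26044, as Gas1 was. That was 22.2% of the 9, against 21.3% of all genes tested. None of the 10 fibroblast markers was at 0. Endothelial markers also had their highest sum in tumor 26044, at 117 FPKM against 33.5 to 60.6 FPKM in the others, though Tek was highest in tumor 26048. Of the 6 endothelial markers tested, 0 were separated between genotypes. The part of these cell types in the level of Gas1 was not tested.

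Smo was well expressed in every tumor and its level separated the double-mutant tumors rather than the genotypes. Smo (chr6:29735497-29761366), the signal transducer of the pathway, was at 55.1 and 58.3 FPKM in the triple-mutant tumors and at 96.7 and 16.3 FPKM in the double-mutant tumors 26048 and 26050. The double-mutant tumors again held both extremes, 5.9-fold apart, and the means of the genotypes were close, at 56.7 ± 2.25 and 56.5 ± 56.8 FPKM (SD, n = 2 each). The log2 fold change was 0.49 (SE 0.86, 95% interval -1.80 to 2.77, limma adjusted p = 0.862). Without tumor 26050 it turned to -0.76, and without tumor 26048 it was 1.74. Adipocyte markers were also highest in tumor 26048, with a sum of 1420 FPKM against 7.77 to 261 FPKM in the others, and the adipocyte gene Adipoq was at 56.0 FPKM there, 0.829 FPKM in tumor 26050, 0.328 FPKM in tumor 26043 and listed at 0 in tumor 26044. Plin1, Lep and Retn of the same 6 markers were also listed at 0 in at least 1 tumor. The part of adipocytes in the level of Smo was not tested.

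Ptch1 varied little. Ptch1 (chr13:63511533-63565520), the ligand receptor and a target gene, was at 5.94 and 3.82 FPKM in the triple-mutant and 5.95 and 5.79 FPKM in the double-mutant tumors. The groups overlapped, and tumor 26044 was the lowest. The log2 fold change was -0.25 (SE 0.34, 95% interval -1.16 to 0.66, limma adjusted p = 0.819). A fall of about 1 log2 unit thus lies within the interval, and a rise only up to 0.66. Without tumor 26044 it was 0.01. Smo exceeded Ptch1 in every tumor, by 9.28-fold and 15.3-fold in the triple-mutant and by 16.2-fold and 2.82-fold in the double-mutant tumors.

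Gli3 was the main Gli transcript in all 4 tumors, with 76.9% to 95.3% of the summed FPKM of the 3 Gli genes. Gli3 (chr13:15463723-15730025), which acts mostly as the repressor of the pathway, was at 4.73 and 2.64 FPKM in the triple-mutant and at 3.84 and 3.0 FPKM in the double-mutant tumors. The triple-mutant tumors held both the highest and the lowest value. The log2 fold change was 0.05 (SE 0.38, 95% interval -0.95 to 1.06, limma adjusted p = 0.968), and it turned to -0.27 without tumor 26043 and to -0.08 without tumor 26050.

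Gli1 and Gli2 were below 1 FPKM in all 4 tumors and have no test. Gli1 (chr10:127329882-127341579), the activator and direct readout of the pathway, was at 0.620 and 0.303 FPKM in the triple-mutant and at 0.302 and 0.0410 FPKM in the double-mutant tumors. The values of tumors 26044 and 26048 were nearly equal, so the genotypes were set apart by a margin far inside the intervals of 0.175 to 0.446 and 0.178 to 0.425 FPKM that Cufflinks gives for these tumors. Part of Gli1 is overlapped by Arhgap9 on the opposite strand. Gli2 (chr1:118834061-119053619), the main activator upstream of Gli1, was at 0.449 and 0.490 FPKM in the triple-mutant and at 0.353 and 0.107 FPKM in the double-mutant tumors. Both genes were lowest in tumor 26050, the tumor with the lowest Smo and the highest Dhh.

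**Figure D2:**
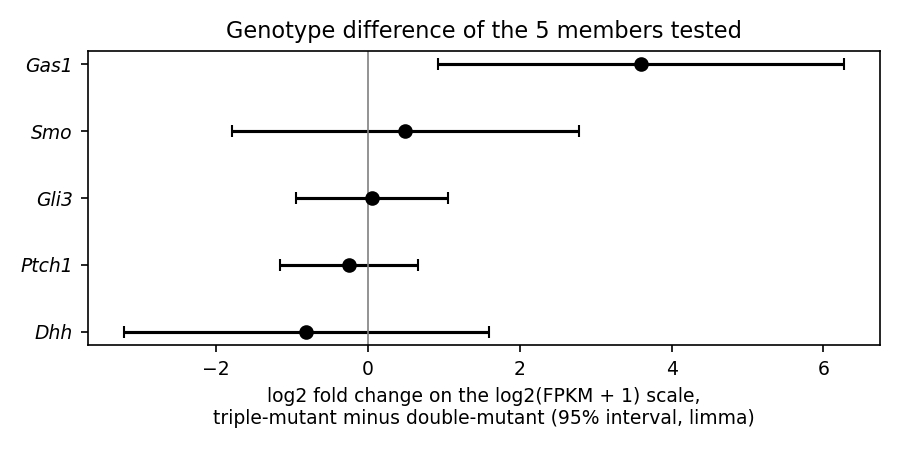
Log2 fold change of the 5 Hedgehog genes tested, triple-mutant minus double-mutant on the log2(FPKM + 1) scale, with 2 tumors per genotype. Points are limma estimates and bars their 95% intervals. The intervals of Dhh, Ptch1, Smo and Gli3 include 0 and that of Gas1 (0.92 to 6.27) does not, while none of the adjusted p values passed 0.05.

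The order of the levels differed between genotypes mainly by Gas1. In the triple-mutant tumors Gas1 and Smo came first with ranges that overlapped, then Ptch1 and Gli3, which also overlapped, then Dhh, Gli2 and Gli1, of which Gli1 overlapped both others, then Shh and Ihh, which overlapped. In the double-mutant tumors Smo came first, with its lowest value of 16.3 FPKM above every other Hedgehog gene in both tumors, followed by Ptch1, Gas1, Dhh and Gli3. The range of Dhh overlapped those of Ptch1, Gas1 and Gli3, so its place among them is not resolved. Smo was the highest Hedgehog gene in 3 of the 4 tumors, and Gas1 was in tumor 26044, at 3.24 times the level of Smo.

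Differences between tumors of the same genotype were large for 3 genes. The median absolute difference between tumors on the log2(FPKM + 1) scale was 0.45 over all genes tested for the triple-mutant and 0.36 for the double-mutant tumors. Gas1 differed by 2.94 between the triple-mutant tumors, being higher in 26044, whereas Smo differed by 2.50 and Dhh by 2.52 between the double-mutant tumors, in opposite directions. Ptch1 and Gli3 differed by at most 0.66 within a genotype. The FPKM of Gas1, Smo and Ptch1 lay above Cufflinks' own interval in all 4 tumors and that of Dhh in 2, and 5668 to 6827 rows per tumor had an FPKM outside their interval. With the midpoint of the interval in place of FPKM the log2 fold change of Gas1 was 3.51.

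The genes most like Dhh and Smo over the 4 tumors were set by tumor 26050. For Dhh they were Hddc3, a nucleotide hydrolase (distance 0.20), Rnd2, a small GTPase (0.27), and Dnajc22 (0.30). Each was highest in tumor 26050, at 23.7, 94.6 and 8.71 FPKM, against at most 6.02, 15.8 and 1.82 FPKM in the others. For Smo they were Slc25a42, a mitochondrial carrier (0.19), Casp2, a caspase (0.20), and Coro2a, a coronin (0.20), which were lowest in tumor 26050 at 0.910, 4.51 and 5.25 FPKM. Dnajc22 lies within 1 Mb of Dhh on chromosome 15, but the genes there did not share its rise in tumor 26050 as a group. Of the 47 other genes tested within 1 Mb of Dhh, 33 were higher in tumor 26048 than in 26050. The median of 26048 minus 26050 was 0.19 log2 units, and the same count over all genes tested is not given here.

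Genes around Smo on chromosome 6 were examined because of its spread between the double-mutant tumors, and the neighbours named here were chosen after their values were seen. Of the 21 other genes tested that lay at least in part within 1 Mb of Smo, 17 (81.0%) were higher in tumor 26048 than in both triple-mutant tumors, against 37.3% on the whole of chromosome 6 and 36.3% of all genes, with a median difference of 1.0 log2 units from the triple-mutant mean. In tumor 26050, 15 of the 21 (71.4%) were higher than in both triple-mutant tumors, against 22.1% on chromosome 6 and 34.6% of all genes. In that tumor 12 of the 21 were at least 2 log2 units above the triple-mutant mean, against 34 of 625 on chromosome 6 and 236 of 12748 among all genes. Impdh1, an enzyme of guanine nucleotide synthesis, was at 33.6, 32.5, 82.4 and 1084 FPKM in tumors 26043, 26044, 26048 and 26050, and Tnpo3, a nuclear import receptor 0.173 Mb from Smo, at 30.9, 24.3, 81.7 and 466.5 FPKM.

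Smo did not share the high level of its neighbours in tumor 26050. It stood 0.76 log2 units above the triple-mutant mean in tumor 26048 but 1.74 below it in tumor 26050. The genes next to it, Tspan33 at 6.61, 5.05, 12.6 and 4.52 FPKM and Ahcyl2 at 9.44, 7.27, 18.5 and 4.68 FPKM in the same order of tumors, were also highest in 26048 and lowest in 26050. Higher levels in 26050 resumed farther out on both sides, as with Ube2h at 270.1 FPKM against 27.8 to 79.2 FPKM in the others. Mest, at the edge of the window, was lower in both double-mutant tumors, at 11.2 and 6.13 FPKM against 95.5 and 144 FPKM. DNA copy number was not measured here, and its part in these levels was not tested. Around the other Hedgehog genes tested, the median log2 fold change within 1 Mb was -0.02 over 8 genes for Gas1, -0.37 over 47 for Dhh, 0.03 over 17 for Ptch1 and -0.34 over 4 for Gli3.

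**Figure D3:**
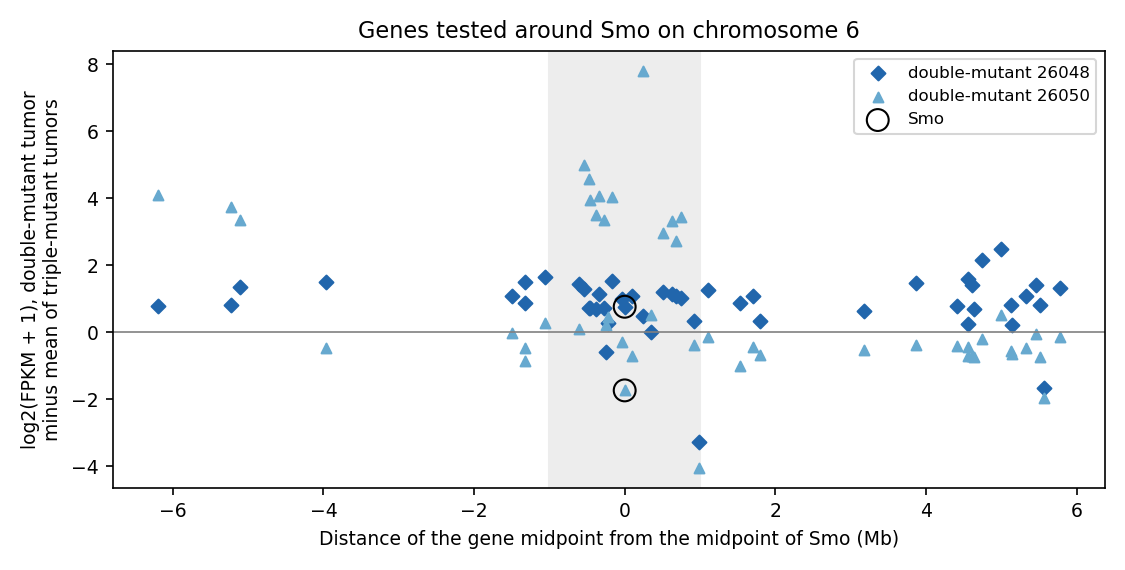
Genes tested on chromosome 6 by distance from Smo (Mb, midpoint to midpoint), with the difference of each double-mutant tumor from the mean of the triple-mutant tumors on the log2(FPKM + 1) scale. Dark diamonds are tumor 26048, light triangles tumor 26050, open circles mark Smo, and grey marks 1 Mb to either side. Of the 21 neighbours that reach into 1 Mb of Smo, 12 lie at least 2 log2 units up in tumor 26050 (34 of 625 on chromosome 6), whereas Smo lies 1.74 down.

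The remaining pathway genes were counted by role in lists of 125 genes, all found, and none passed the threshold. At the receptor, 3 of 5 co-receptors and antagonists reached the filter, 2 of them (66.7%, against 21.3% of all genes tested) had both triple-mutant tumors on top and the list median was 1.17, against a median of -0.02 over all genes tested. Cdon was at 5.53 and 5.56 against 4.05 and 1.46 FPKM, higher in both triple-mutant tumors (log2 fold change 0.89, limma adjusted p = 0.577). Boc was at 8.04 and 36.7 against 8.42 and 6.15 FPKM, so its genotypes overlapped and tumor 26044 stood highest, as for Gas1. Hhip, a decoy receptor and target gene, stayed at or below 0.177 FPKM, and Lrp2, an endocytic receptor, at or below 0.347 FPKM.

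Genes that process, release and carry ligands were mixed. Of 14, 12 were tested, 5 (41.7%, against 21.3% of all genes tested) were higher in both triple-mutant and 2 (16.7%, against 22.9%) in both double-mutant tumors, and the median was 0.36. The secreted carrier Scube3 was at 11.5 and 6.87 FPKM in the triple-mutant and at 0.734 and 0.347 FPKM in the double-mutant tumors (log2 fold change 2.70, SE 0.39, limma adjusted p = 0.200). Its relative Scube1 lay the other way, at 2.76 and 0.470 against 15.5 and 12.7 FPKM (log2 fold change -2.68, SE 0.55, adjusted p = 0.342), and Scube2 stayed at or below 0.214 FPKM. Gpc3, a glypican that binds Hedgehog ligands, was at 12.7 and 61.0 against 4.46 and 3.84 FPKM (2.50, adjusted p = 0.480), again highest in tumor 26044. The acyltransferase Hhat (1.5 to 4.24 FPKM) and the ligand exporter Disp1 (3.28 to 6.71 FPKM) overlapped between genotypes.

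Between SMO and the Gli factors, all 32 cytoplasmic regulators were tested, 9 (28.1%) were higher in both triple-mutant and 7 (21.9%) in both double-mutant tumors, near the 21.3% and 22.9% of all genes tested, and the median was -0.07. Sufu, which holds Gli proteins in the cytoplasm, was at 11.1 and 13.0 FPKM in the triple-mutant and at 16.1 and 17.0 FPKM in the double-mutant tumors (log2 fold change -0.43, limma adjusted p = 0.648). Kif7, a ciliary kinesin that organises Gli proteins at the cilium tip, was at 3.29 and 5.14 against 1.24 and 1.24 FPKM (1.20, adjusted p = 0.470). Evc and Iqce, parts of the complex that acts with SMO at the base of the cilium, were at 10.7 and 12.2 against 5.47 and 3.55 FPKM (1.20) and at 9.05 and 9.20 against 5.03 and 3.78 FPKM (0.92). All 40 genes of the primary cilium and intraflagellar transport were tested, 17 (42.5%, against 21.3% of all genes tested) were higher in both triple-mutant and 8 (20.0%, against 22.9%) in both double-mutant tumors, with a median of 0.21. Its widest separated differences were Fuz (1.40), Ift122 (1.05) and Ift81 (0.92), none with an adjusted p below 0.480.

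**Figure D4:**
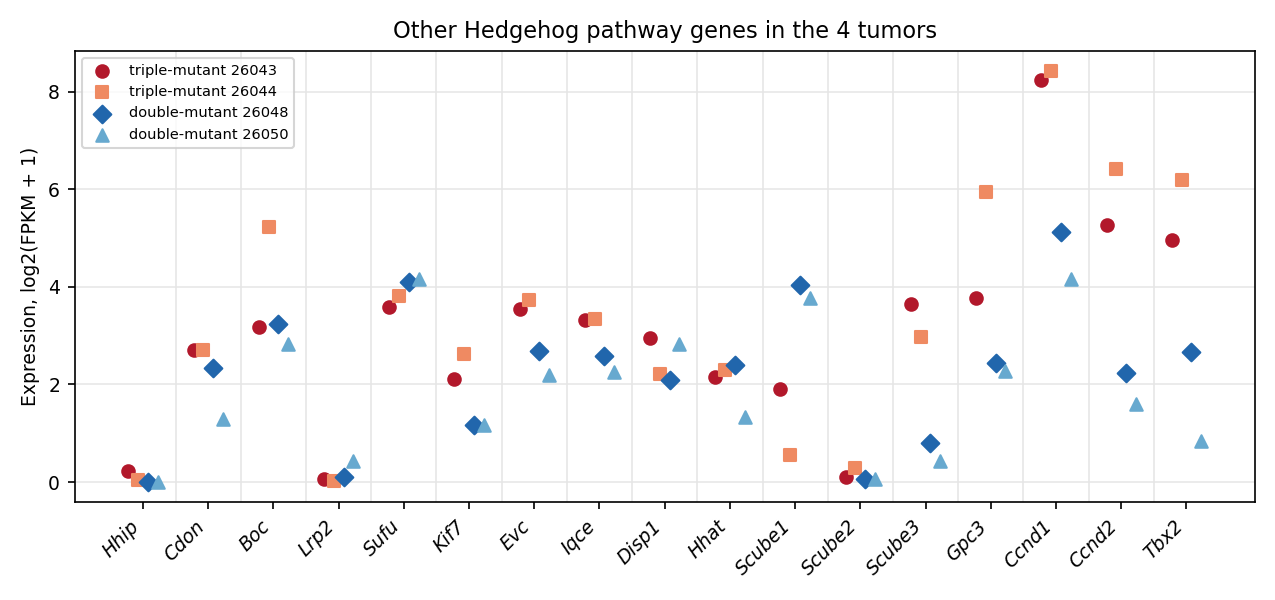
Level of 17 other pathway genes, as log2(FPKM + 1), in each tumor, with 1 point per tumor. Red points are triple-mutant and blue points double-mutant tumors. Scube3 lies higher and Scube1 lower in both triple-mutant tumors, while Disp1 and Hhat overlap between genotypes.

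Genes described elsewhere as Hedgehog targets numbered 26, of which 19 were tested, 9 (47.4%, against 21.3% of all genes tested) were higher in both triple-mutant and 2 (10.5%, against 22.9%) in both double-mutant tumors, with a median of 0.86. Those with the widest separated differences were the cyclin Ccnd2 at 37.7 and 84.6 against 3.71 and 2.03 FPKM (log2 fold change 3.93, limma adjusted p = 0.181), the T-box factor Tbx2 at 30.2 and 71.7 against 5.39 and 0.779 FPKM (3.82, adjusted p = 0.342) and the cyclin Ccnd1 at 301.5 and 342 against 34.0 and 17.0 FPKM (3.68, adjusted p = 0.167). These genes respond to many pathways, and the basal markers given beside Gas1 differed between the same tumors with a median of 3.68, whose part in this list was not tested. Of the targets among the Hedgehog genes themselves, Gli1 was at most 0.620 FPKM and untested, and Ptch1 overlapped between genotypes. Of 8 other zinc-finger genes of the Gli superfamily 2 were tested, and Glis3 was at 3.36 and 1.01 against 6.13 and 3.97 FPKM (-1.01, limma adjusted p = 0.575), higher in both double-mutant tumors.

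**Figure D5:**
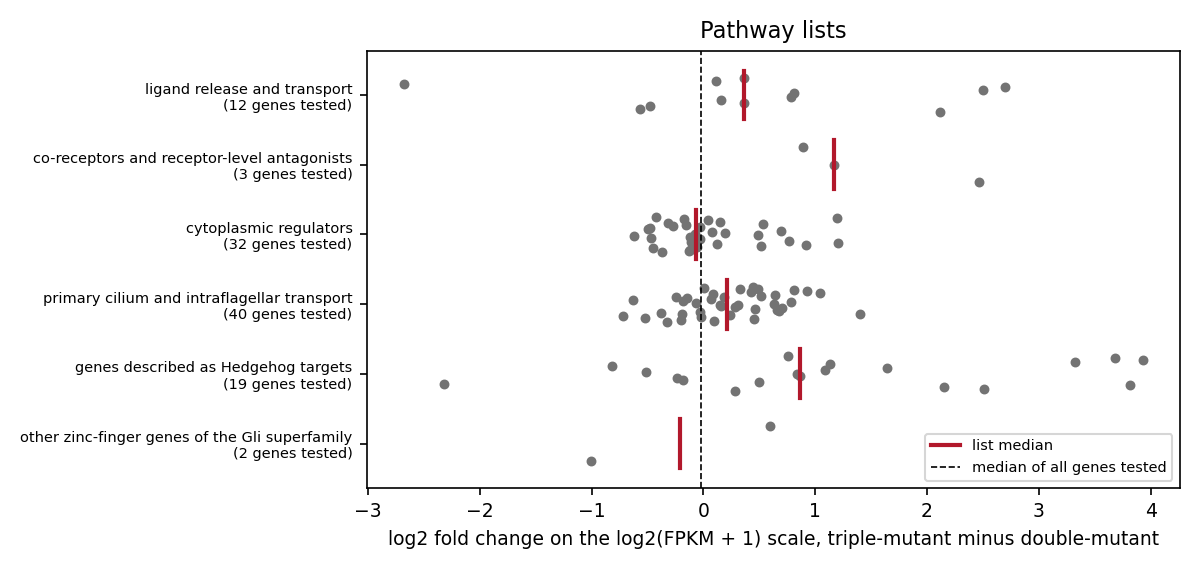
Log2 fold change of each tested gene, triple-mutant minus double-mutant, in 6 lists of pathway genes, with 1 grey point per gene. Red bars mark list medians and the dashed line the median of all genes tested, -0.02. The target list (median 0.86) spreads widest, and the cytoplasmic regulators (median -0.07) lie around the overall median.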

How the data were processed

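PolyA mRNA of 4 tumors was sequenced by the authors as 50-bp single-end reads of dUTP-marked libraries. Per the submitters' processing notes, reads were aligned to mm10 with TopHat2 2.0.10 and Bowtie 0.12.9. The deposited FPKM of each gene and the bounds of its interval were estimated by the authors with Cufflinks 2.1.1. Read counts (HTSeq) and their test (DESeq2 1.6.2) were not used here, so depth is unknown and the count test was replaced by limma.

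The 4 tables were joined on symbol and locus (23746 rows). Loci were checked against GENCODE M21 on GRCm38, where 98.0% of 21209 rows lay over the gene of their symbol. The filter asked for 1 FPKM or more in 2 or more tumors (12752 genes). The limma model (version 3.58.1, R 4.3.3, lmFit, eBayes with trend) used log2(FPKM + 1) and genotype as the only term, with Benjamini-Hochberg adjustment over all genes tested and a threshold of 0.05. The scripts were tested on simulated data. Nothing in the sources says whether tumors of a genotype came from separate mice, so p-values measure the spread between these tumors only.

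Members and gene lists were chosen with earlier results of these data known. Named genes were all 9 members, Hhip, Boc, Cdon, Lrp2, Sufu, Kif7, Disp1, Hhat and Scube2, the 3 non-overlapping genes of each pathway list with the largest absolute fold change, Tnfrsf11a, and the 3 genes closest in centred profile to each tested member spanning at least 1 log2 unit, without predicted genes, small RNA genes and other members. Some genes that this rule names or that the lists hold are not reported here. Marker lists covered basal, luminal, squamous, fibroblast, endothelial, leukocyte, adipocyte and Schwann cells. Alternatives were no filter or one of 5 FPKM, a pseudocount of 0.1, TPM, quantile normalization, median centring, no trend, genes of status OK, interval midpoints and each tumor left out. Plots were made with matplotlib 3.10.9.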

Additional observations from a re-analysis of the deposited data

How the results depend on the processing

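No Hedgehog gene passed the threshold under any alternative run, and Gas1 stayed higher in both triple-mutant tumors throughout, with a log2 fold change of 3.51 to 3.82 under other settings and 2.13 to 5.07 with a tumor left out. Over all genes, quantile normalization put 6, the fit without trend 5 and interval midpoints 1 past the threshold. Without a filter, the triple-mutant tumors were both on top for 4 Hedgehog genes (Gas1, Gli1, Gli2 and Shh) and the double-mutant tumors for 1 (Ihh). The same counts over all 19078 genes of that run were 3911 and 3851. Quantile normalization and median centring each put 1 (Ptch1) higher in both double-mutant tumors, against 3261 and 3281 of all 12752 genes tested. With each tumor left out, so that 1 tumor stood against 2, the counts of Hedgehog genes ran from 1 to 2 and from 0 to 2. Those over all 12752 genes tested ran from 3923 to 5125 and from 4063 to 5752. The direction of Gli3 turned under quantile normalization (-0.006). With a tumor left out the fold changes ran from -2.07 to 0.45 for Dhh, -0.51 to 0.013 for Ptch1, -0.76 to 1.74 for Smo and -0.27 to 0.38 for Gli3. List medians with a tumor left out ran from 0.18 to 0.61 for ligand release, 0.89 to 2.20 for co-receptors, -0.15 to 0.055 for cytoplasmic regulators, 0.16 to 0.32 for the cilium, 0.87 to 1.13 for targets and -0.74 to 0.33 for the Gli superfamily. A filter of 5 FPKM moved the cilium median to 0.33 and the Gli superfamily median to 0.59, interval midpoints moved the cilium median to 0.31, and a pseudocount of 0.1 moved the target median to 1.62. The cause of these shifts was not tested beyond what each alternative changes. No paired analysis was possible because, although the genotypes were littermates, the litter of each tumor is not given in the sources used here. With 2 tumors per genotype and no read counts, low values such as those of Shh, Ihh, Gli1 and Gli2 cannot be compared.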

Other observations

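Markers of endothelial, leukocyte and squamous cells were also read in the 4 tumors. The 7 endothelial markers summed to 35.7 and 117 FPKM in the triple-mutant and to 60.6 and 33.5 FPKM in the double-mutant tumors. Of the 6 tested, 0 were separated between genotypes. Among all genes tested 21.3% were higher in both triple-mutant and 22.9% in both double-mutant tumors. The 7 leukocyte markers summed to 52.0 and 45.7 against 86.4 and 87.4 FPKM, with 4 of the 5 tested (80.0%, against 22.9%) higher in both double-mutant tumors. The 7 squamous markers were low, with sums of 13.5 and 5.12 against 4.84 and 1.77 FPKM.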
